A study of Mus musculus with 4 samples.

Results

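The 9 genes described here mark blood monocytes and the macrophages of the lung interstitium, and were given as a list of symbols: Csf1r, Ccr2, Cx3cr1, Mrc1, Cd163, Lyve1, Adgre1, Ms4a7 and Fcgr1. All 9 were found among the 21499 distinct gene symbols of each library. Monocytes leave the bone marrow through the chemokine receptor CCR2, and patrolling monocytes depend on CX3CR1. In the lung, monocytes give rise to interstitial macrophages, which lie along vessels and airways and are distinct from the alveolar macrophages of the air spaces. Monocytes and interstitial macrophages receive signals through the CSF1 receptor. The receptors MRC1, CD163 and LYVE1 are used as markers of interstitial macrophages, although alveolar macrophages make MRC1 too.

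The tissue was lung from C57B/L6 mice carrying metastases of B16-F10, a melanoma line that lodges in the lung after intravenous injection. Lungs of 2 wild-type mice and of 2 mice with the Lf-/- genotype, which lack lactoferrin, were sequenced with 1 library per mouse. Per the labels all were males of 8 weeks when 200000 cells were given by the tail vein, all carried the tumour, and tissue free of tumour cells was taken from around the colonies 3 weeks later. The labels do not say how the knockout was made or whether the controls were littermates. The design sets lungs without lactoferrin against wild-type lungs, which bears on how the loss of lactoferrin goes with the make-up of lung around metastases.

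The unit is FPKM, in which the fragments of a gene are scaled to its transcript length and to the size of the library. The values summed to between 317976 and 400153 in a library. Ltf, the lactoferrin gene, stood at 79.2 (wild-type mouse 1) and 7.32 (wild-type mouse 2), against 0.104 (knockout mouse 1) and 0.533 (knockout mouse 2). The labels call every mouse male, but the Y-linked gene Ddx3y was listed at 0 in both wild-type mice and at 14.5 and 12.1 in the knockout mice, and the Y-linked genes Eif2s3y, Uty and Kdm5d were at or near 0 in the same 2 mice. In every difference between genotypes given here, genotype and sex cannot be told apart. Knockout mouse 2 stood apart from the other libraries in its leukocyte genes. The geometric mean of 6 pan-leukocyte genes (Ptprc, Cd53, Coro1a, Laptm5, Lcp1 and Itgb2) was 46.6 and 56.8 in wild type, 50.1 in knockout mouse 1 and 25.0 in knockout mouse 2. Scgb1a1, an abundant club cell gene, was listed at 0 in knockout mouse 2, against 72936 and 60454 in wild type and 69980 in knockout mouse 1. Without this gene the values summed to between 315089 and 327216 in a library, and its 0 is not read as absence. Although the labels call the tissue free of tumour cells, melanocyte transcripts were present. In wild-type mouse 2 the summed FPKM of 5 melanocyte genes was 98.96, against 4.82 in wild-type mouse 1 and 2.29 to 6.29 in the knockout mice. The source of these transcripts was not tested. The lung markers Pecam1, of endothelium, and Sftpc, of alveolar type 2 cells, were present in all 4 libraries, at 153 or more and 17185 or more.

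No member passed the genome-wide test of genotype, and knockout mouse 2 was the lowest library for 7 of 9. Of the 9 genes, 8 had a lower mean in the knockout, and for 5 (Mrc1, Cd163, Lyve1, Adgre1 and Ms4a7) both knockout mice lay below both wild-type mice. The remaining 4, Csf1r, Ccr2, Cx3cr1 and Fcgr1, overlapped between genotypes. In limma's moderated test over 12573 genes the adjusted p of the members lay between 0.89 and 0.904, with 0 of 9 past 0.05, against 0.0239% of all genes tested. At an unadjusted p under 0.05 there were 2 of 9, Lyve1 and Ms4a7, against 5.11% of all genes, and Ms4a7 had entered the test through the wild-type mice alone, so nothing is read from that count. The order of both knockout mice below both wild-type mice was held by 17.5% of all genes tested, and the opposite order by 18.5% of all genes and 0 of 9 members. The median log2 difference, knockout minus wild type, was -0.70 over the members and -0.005 over all genes tested. Without knockout mouse 2 the member median was -0.32 and 7 of 9 lay below 0, and without knockout mouse 1 it was -1.01. With 2 mice a group the smallest two-sided p of an exact permutation test is 0.333, and no such test is given.

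**Figure D1:**
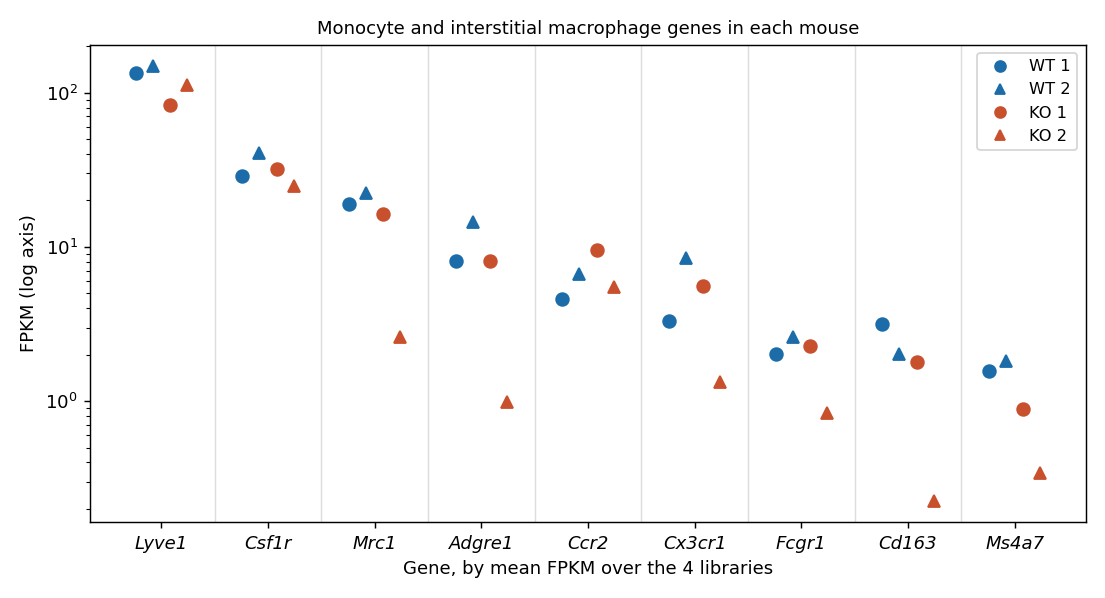
FPKM of each member gene (log axis) in the 4 mice, 1 point per library, with blue for wild type, red for knockout, circles for mouse 1 and triangles for mouse 2 of each genotype. Knockout mouse 2 is the lowest library for 7 of 9 genes, while Lyve1 is lowest in knockout mouse 1 (83.3) and Ccr2 in wild-type mouse 1 (4.59).

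Csf1r encodes the tyrosine kinase receptor for CSF1 and interleukin 34, on which monocytes and most tissue macrophages depend. The gene (chromosome 18, 61100598 to 61132149, plus strand, GRCm38) measured 29.0 and 40.8 FPKM in wild-type mice 1 and 2 and then 31.9 and 24.9 in knockout mice 1 and 2. The genotypes overlapped, and the whole spread from lowest to highest library was 1.64-fold, the narrowest of the 9 genes. For genotype the log2 difference was -0.28 (SE 0.22, adjusted p = 0.894 by limma), and it ran from -0.52 without wild-type mouse 1 to -0.040 without wild-type mouse 2. The last exons of Csf1r overlap Hmgxb3 on the other strand over 873 bases, and without a stated strand setting reads there cannot be told apart. Hmgxb3 lay between 7.03 and 7.94 FPKM in all 4 libraries. Of the ligands of Csf1r, Csf1 measured 8.53 and 7.55 in wild type against 11.2 and 7.56 in the knockout, and Il34 10.2 and 7.18 against 7.77 and 6.19, with overlap in both.

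Ccr2 and Cx3cr1 are the chemokine receptors that distinguish classical from patrolling monocytes, and their orders over the 4 mice differed. Both lie on chromosome 9, as does Ltf, at 13.1 and 8.86 Mb from it: Ccr2 from 124101950 to 124113557 on the plus strand, Cx3cr1 from 119901616 to 120069879 on the minus strand (GRCm38). Ccr2 measured 4.59 and 6.66 FPKM in wild-type mice 1 and 2 and then 9.47 and 5.47 in knockout mice 1 and 2. Its highest value was in knockout mouse 1, and knockout mouse 2 lay between the wild-type mice. This was the one member with a higher knockout mean (log2 difference 0.33, SE 0.29, adjusted p = 0.9 by limma). The sign turned without knockout mouse 1, to -0.015, and the value was 0.68 without knockout mouse 2.

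Cx3cr1 measured 3.28 and 8.51 FPKM in wild-type mice 1 and 2 and then 5.61 and 1.33 in knockout mice 1 and 2. The wild-type mice thus lay 2.59-fold apart and the knockout mice 4.23-fold apart, wider within each genotype than between their means (5.90 ± 3.70 and 3.47 ± 3.03, SD, n = 2). The log2 difference was -0.70 (SE 0.64, adjusted p = 0.904 by limma), and it ran from -1.46 without knockout mouse 1 to 0.051 without knockout mouse 2. Exons of Cx3cr1 overlap Gm33858 on the other strand, for which the files hold no row under that symbol. Among the chemokine ligands, Cx3cl1, the ligand of CX3CR1, lay higher in both knockout mice (15.4 and 12.6 against 17.3 and 18.9, log2 difference 0.35, adjusted p = 0.89 by limma). Ccl12, a mouse ligand of CCR2, measured 3.84 and 3.28 in wild type against 4.32 and 0.959 in the knockout. Of the 7 ligand genes listed, 3 lay lower and 4 higher in the knockout, and none passed.

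Mrc1, Cd163 and Lyve1 encode the scavenger and lectin receptors of interstitial macrophages, and each lay lower in both knockout mice. Mrc1 (chromosome 2, 14229392 to 14332057, plus strand), the macrophage mannose receptor, measured 19.1 and 22.4 FPKM in wild-type mice 1 and 2 and then 16.4 and 2.60 in knockout mice 1 and 2. Knockout mouse 1 lay just under the wild-type mice, and knockout mouse 2 lay 6.32-fold below knockout mouse 1. The log2 difference was -1.45 (SE 0.76, adjusted p = 0.89 by limma), -0.32 without knockout mouse 2 and -2.59 without knockout mouse 1.

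Cd163 (chromosome 6, 124304656 to 124330527, plus strand), which takes up haemoglobin bound to haptoglobin, measured 3.16 and 2.03 FPKM in wild type, against 1.80 and 0.227 in the knockout. It was the one member highest in wild-type mouse 1, and the step from wild-type mouse 2 to knockout mouse 1 was small beside the 7.96-fold distance between the knockout mice. Between genotypes Cd163 had a log2 difference of -0.94 (SE 0.44, adjusted p = 0.89 by limma), running from -1.53 without knockout mouse 1 to -0.34 without knockout mouse 2. With a pseudocount of 0.1 in place of 1 it was -1.74. The gene of haptoglobin itself (Hp, named after its values were seen) overlapped, with 1007 and 725 against 824 and 1219.

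Lyve1 (chromosome 7, 110850607 to 110863239, minus strand), a hyaluronan receptor shared by perivascular macrophages and lymphatic endothelium, was the most abundant member. It measured 134 and 148 FPKM in wild type, against 83.3 and 113 in the knockout mice. It was the one member lower in knockout mouse 1 than in knockout mouse 2. Lyve1 had a log2 difference of -0.54 (SE 0.19, adjusted p = 0.89 by limma). Leaving out knockout mouse 1 gave -0.32 and leaving out knockout mouse 2 gave -0.75, so Lyve1 lay further from wild type without the library that lay lowest for most other members. Of 5 tested genes of lymphatic endothelium, 4 were lowest in knockout mouse 2. Ccl21a measured 97.9 and 107 in wild type against 85.1 and 18.0 in the knockout, Mmrn1 6.49 and 7.24 against 5.19 and 1.71, and Pdpn, which alveolar type 1 cells also express, 52.4 and 54.0 against 59.5 and 80.0. The summed FPKM of the 6 lymphatic genes was 169 and 182 in wild type against 162 and 109 in the knockout. Of 5 tested, 3 had both knockout libraries lower, an order held by 17.5% of all genes tested. Among these 3, Reln (1.03 and 1.49 against 0.952 and 0.0856) had entered the test through the wild-type mice alone. Nothing is therefore read from that count. Whether Lyve1 here came from macrophages or from lymphatic vessels was not tested.

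Promoter sequences are shown for Mrc1, Cd163, Ms4a7 and Fcgr1, which were lowest in knockout mouse 2. Cx3cr1 was lowest there too, and its window was searched but is not printed. PU.1, a transcription factor of macrophages, binds a purine-rich core. The windows run from 250 bases before to 50 bases after the RefSeq start (GRCm38.p6), and those of 6 members were searched. The motif GAGGAA was searched on both strands and is in capitals, also where it reads TTCCTC on the opposite strand. The Mrc1 window (chr2:14229164-14229463, plus strand) holds 3 matches and the Cd163 window (chr6:124304401-124304700, plus strand) none.
Mrc1: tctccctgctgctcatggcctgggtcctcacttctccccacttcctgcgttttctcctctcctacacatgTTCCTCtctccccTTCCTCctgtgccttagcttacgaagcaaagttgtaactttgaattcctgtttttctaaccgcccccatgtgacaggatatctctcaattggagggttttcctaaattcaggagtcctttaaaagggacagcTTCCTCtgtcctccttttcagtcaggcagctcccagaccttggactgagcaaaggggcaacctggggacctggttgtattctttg
Cd163: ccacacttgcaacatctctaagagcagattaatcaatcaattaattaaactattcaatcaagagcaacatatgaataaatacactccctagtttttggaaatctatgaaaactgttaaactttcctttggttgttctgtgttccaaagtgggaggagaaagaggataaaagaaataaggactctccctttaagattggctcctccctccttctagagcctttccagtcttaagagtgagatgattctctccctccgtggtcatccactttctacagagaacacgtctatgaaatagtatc
The Ms4a7 window (chr19:11336097-11336396, minus strand) holds 1 match, at 43 bases after the start. The Fcgr1 window (chr3:96293920-96294219, minus strand) holds 1 match, at 55 bases before it.
Ms4a7: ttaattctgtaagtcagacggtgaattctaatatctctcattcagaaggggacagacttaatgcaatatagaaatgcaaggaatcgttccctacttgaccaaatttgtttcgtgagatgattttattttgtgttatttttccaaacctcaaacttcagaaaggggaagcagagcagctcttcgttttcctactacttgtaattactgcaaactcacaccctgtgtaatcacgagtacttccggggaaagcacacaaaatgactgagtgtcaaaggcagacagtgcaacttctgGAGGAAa
Fcgr1: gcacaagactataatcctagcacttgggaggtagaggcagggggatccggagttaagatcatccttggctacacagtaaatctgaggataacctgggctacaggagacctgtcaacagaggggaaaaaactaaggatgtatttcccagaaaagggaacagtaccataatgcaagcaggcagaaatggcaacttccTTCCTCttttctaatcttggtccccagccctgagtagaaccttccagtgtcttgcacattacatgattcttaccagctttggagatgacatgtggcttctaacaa
The windows of Ccr2 and Cx3cr1 held no match, so 3 of 6 member windows had the motif, against 28.3% of 32851 promoters searched. The C/EBP motif TTGCNNAA, searched on both strands, was found in 0 of 6 and in 10.8% of all promoters. A match is a run of letters and not a measured binding site, and no match speaks of these windows alone. For Lyve1 and Adgre1 no window was available, and Csf1r was left out of the search, so the count of 6 does not include them.

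Adgre1 and Ms4a7 are membrane proteins used as macrophage markers, and both lay lower in the knockout mice. Adgre1 (chromosome 17, 57358691 to 57483527, plus strand), the adhesion receptor F4/80, measured 8.132 and 14.5 FPKM in wild-type mice 1 and 2 and then 8.129 and 0.989 in knockout mice 1 and 2. Knockout mouse 1 and wild-type mouse 1 were thus almost equal, and the low order of both knockout mice rests on that margin. It was lost under 3 other scalings of the libraries, which left 4 of 9 members in that order. The knockout mice lay 8.22-fold apart, the widest distance of the 9 genes. The log2 difference was -1.48 (SE 0.77, adjusted p = 0.89 by limma), running from -2.58 without knockout mouse 1 to -0.38 without knockout mouse 2.

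Ms4a7 (chromosome 19, 11321039 to 11336146, minus strand), a tetraspanning protein of mature macrophages, measured 1.58 and 1.83 FPKM in wild type, against 0.885 and 0.342 in the knockout mice. It reached the minimum for testing, an FPKM of 1 in 2 libraries, through the wild-type mice alone. The knockout mean was 0.36 times that of wild type, the lowest ratio of the members, with a log2 difference of -0.76 (SE 0.23, adjusted p = 0.89 by limma) and of -0.52 without knockout mouse 2. The pseudocount weighs on a gene this low, and with 0.1 in place of 1 the difference was -1.45. Of 5 Ms4a relatives tested in the family list, 5 lay lower, with a median log2 difference of -0.93 and of -0.63 without knockout mouse 2. In that list 4 had both knockout mice below both wild-type mice, an order held by 17.5% of all genes tested. Relatives kept in the monocyte and B cell lists overlapped instead. Ms4a6c measured 7.90 and 13.1 in wild type against 8.56 and 4.49 in the knockout, and Ms4a1 6.97 and 8.26 against 8.10 and 3.68. Ms4a4c, named after its values were seen, measured 3.47 and 6.12 against 4.92 and 2.66. Ms4a4a measured 5.80 and 5.49 in wild type against 2.36 and 2.65 in the knockout (log2 difference -0.93, SE 0.13, adjusted p = 0.581 by limma). Ms4a6d measured 9.42 and 8.04 against 4.73 and 2.35, Ms4a8a 20.2 and 23.6 against 13.8 and 8.01, and Ms4a6b 3.31 and 3.97 against 3.02 and 1.71. These 4 genes are the ones counted above with both knockout mice below both wild-type mice. That order was also held by 5 of 9 members, Ms4a7 included. Nothing is therefore read from a contrast with the members that overlapped. Ms4a2, another relative named after its values were seen, was too low to be tested and lay higher in the knockout, at 0.422 and 0.266 against 0.137 and 0.106.

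Fcgr1 (chromosome 3, 96282909 to 96293969, minus strand) encodes CD64, the high-affinity receptor for IgG. It measured 2.01 and 2.60 FPKM in wild-type mice 1 and 2 and then 2.29 and 0.843 in knockout mice 1 and 2. The genotypes overlapped, with knockout mouse 1 between the wild-type mice. Its log2 difference was -0.42 (SE 0.32, adjusted p = 0.894 by limma), running from -0.84 without knockout mouse 1 to -0.0018 without knockout mouse 2. With a pseudocount of 0.1 it was -0.67. The other Fc gamma receptors, 3 of the 4 partner genes tested, lay lower in both knockout mice. That order was held by 17.5% of all genes tested. Fcgr2b, which carries an inhibitory motif, measured 6.70 and 7.33 in wild type against 3.71 and 2.49 in the knockout (log2 difference -0.98, SE 0.19, adjusted p = 0.84 by limma). Fcgr3 measured 20.6 and 28.6 against 14.2 and 10.3, and Fcgr4 8.44 and 16.7 against 5.35 and 3.33. Fcer1g, the signalling chain shared by Fcgr1, Fcgr3 and Fcgr4, overlapped, with 20.04 and 37.5 against 20.1 and 21.1. Whether Fcgr1 differs from the other Fc gamma receptors in its response to genotype was not tested.

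**Figure D2:**
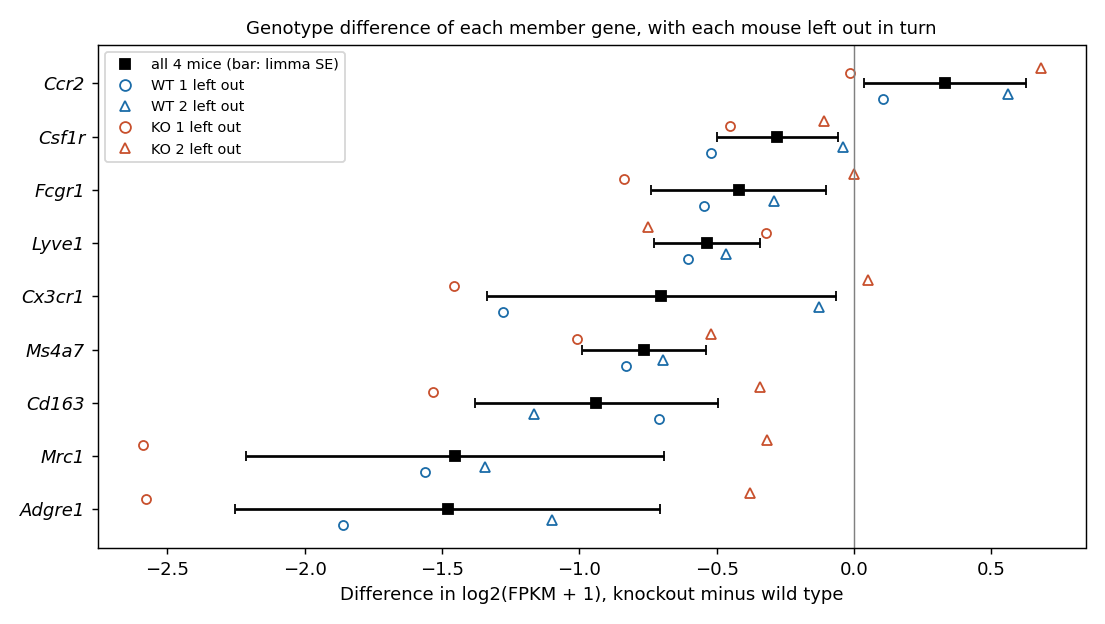
Difference in log2(FPKM + 1), knockout minus wild type, for each member: black squares use all 4 mice with limma's SE as bars, and open symbols leave out 1 mouse (blue wild type, red knockout). Leaving out knockout mouse 2 (red triangles) brings Mrc1 from -1.45 to -0.32 and Adgre1 from -1.48 to -0.38, whereas Lyve1 goes from -0.54 to -0.75.

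Among themselves the members differed in abundance, which FPKM allows to be compared between genes. Lyve1 led in every library (83.3 to 148 FPKM), then Csf1r (24.9 to 40.8), then Mrc1 (2.60 to 22.4). The ranges of these 3 genes did not overlap. Mrc1 exceeded Adgre1 in 4 of 4 libraries although their ranges overlapped. Adgre1 and Ccr2 could not be ordered, with Adgre1 higher in 2 of 4 libraries. The lower neighbours, Ccr2 and Cx3cr1, Fcgr1 and Cd163, and Cd163 and Ms4a7, were in this order in 3 of 4 libraries each, and Cx3cr1 exceeded Fcgr1 in 4 of 4.

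The distance between the knockout mice was wide for most members. Knockout mouse 2 was at least 2-fold below knockout mouse 1 for 6 of 9 members, against 3.57% of all genes tested. For 4 of them, Adgre1, Cd163, Mrc1 and Cx3cr1, the distance was over 4-fold. The members were also alike in their extremes. For 6 of 9 the highest library was wild-type mouse 2 and the lowest knockout mouse 2, an order that 15.0% of all genes tested had. In wild-type mouse 2, with its higher melanocyte genes, 8 of 9 members lay above wild-type mouse 1, from 1.10-fold for Lyve1 to 2.59-fold for Cx3cr1. The part of melanoma cells in these values was not tested.

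Set against leukocyte genes as a whole, the members divided into those with a low and those with a high ratio in knockout mouse 2. Divided by the geometric mean of the 6 pan-leukocyte genes of the same library, 6 of 9 members had their lowest ratio in knockout mouse 2, and 3 (Csf1r, Ccr2 and Lyve1) their highest. The divisor was 46.6 and 56.8 in wild type, 50.1 in knockout mouse 1 and 25.0 in knockout mouse 2. Any gene that fell less than the divisor there has its highest ratio in that mouse. The share of all genes with such ratios was not computed. The Adgre1 ratio was 0.174 and 0.255 in wild-type mice 1 and 2, 0.162 in knockout mouse 1 and 0.0396 in knockout mouse 2. The Mrc1 ratio was 0.41 and 0.394, then 0.328 and 0.104. The Csf1r ratio ran the other way, with 0.623 and 0.719 in wild type, then 0.636 and 0.996, although its FPKM was lowest in knockout mouse 2 (24.9). The Ccr2 ratio was 0.0985 and 0.117 in wild type against 0.189 and 0.219 in the knockout, so both knockout mice lay above both wild-type mice. Fcgr1 stayed within 0.0337 to 0.0458 in all 4 libraries. In bulk tissue, fewer cells of a type and less RNA per cell cannot be told apart.

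**Figure D3:**
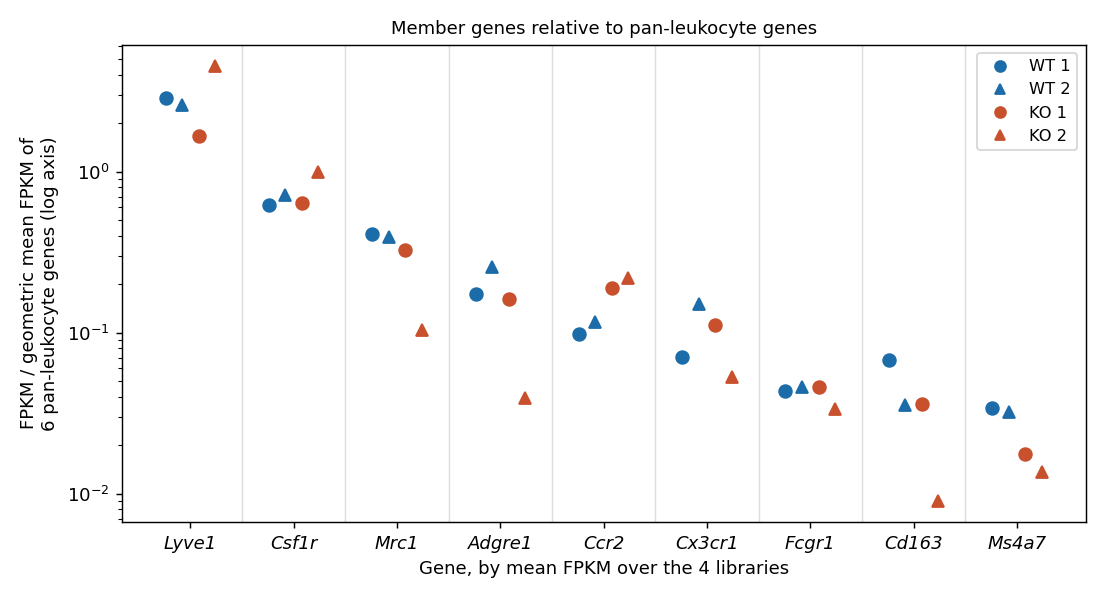
FPKM of each member divided by the geometric mean FPKM of 6 pan-leukocyte genes in the same library (log axis), 1 point per mouse with colours for genotype and shapes for mouse number. In knockout mouse 2 (red triangles) Adgre1, Mrc1 and Cd163 lie below the other 3 mice, while Csf1r (0.996), Ccr2 (0.219) and Lyve1 (4.51) are at their highest.

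Further genes linked with the lineage or with what the members do, from lists that exclude the members, lay lower in the knockout more often than higher. Several are also made by other lung cells, among them Lyz2 (2352 to 5969 FPKM). Cbr2 (2818 to 3380) and Ace (155 to 224), both named after their values were seen, are too. The part of other cells in the counts below was not tested. Across 9 lists 73 genes were tested, of which 56 lay lower and 17 higher in the knockout (45 lower without knockout mouse 2), and 0 passed the genome-wide threshold by limma. Both knockout mice lay below both wild-type mice for 22 of the 73 and above them for 3, against 17.5% and 18.5% of all genes tested. Of 15 other interstitial macrophage genes 14 lay lower, with a median log2 difference of -0.30 and of -0.08 without knockout mouse 2. The complement gene C1qa measured 72.1 and 63.8 in wild type against 52.3 and 17.4 in the knockout, and C1qb 65.4 and 50.1 against 43.6 and 17.3. C1qc measured 51.3 and 44.9 against 41.2 and 12.3. Folr2, a marker of perivascular macrophages named after its values were seen, overlapped, with 7.64 and 3.40 against 4.83 and 0.645.

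Of 8 classical monocyte genes 7 lay lower (median -0.40), and of 7 non-classical monocyte genes 6 lay lower (median -0.67), beside a median of -0.30 for the interstitial macrophage list. In deviation from each gene's average over the 4 mice the order of the lists was another, with a mean of -0.39 for the classical and -0.49 for the non-classical list in knockout mouse 2, against -0.62 for the interstitial macrophage list and -0.85 for the members. Ly6c2, which marks classical monocytes and was named after its values were seen, measured 16.6 and 17.9 in wild type against 14.3 and 16.1 in the knockout. Ccr1 measured 5.89 and 6.69 against 4.94 and 3.35. The patrolling monocyte gene Treml4 measured 3.26 and 8.00 against 3.55 and 1.67, and Adgre4 2.79 and 5.97 against 2.81 and 0.829, and both overlapped as Cx3cr1 did. No test was made between the lists.

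Transcription factors listed for the lineage, some of which other lung cells also make, overlapped between genotypes in 7 of 8 cases. Most genes tested overlapped as well: 17.5% had both knockout mice lower and 18.5% had both higher. Spi1, which encodes PU.1, measured 12.7 and 15.1 FPKM in wild type against 15.7 and 9.25 in the knockout. Cebpb lay higher in both knockout mice, with 83.6 and 74.5 against 95.7 and 149 (log2 difference 0.59, SE 0.24, adjusted p = 0.89 by limma). Of 8 factors tested 6 lay lower and 2 higher (median -0.11, and 0.20 without knockout mouse 2). Irf8, also outside the rule for named genes, was listed at 0 in all 4 libraries, in lungs where the other monocyte genes were present, so its value is not read as absence.

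**Figure D4:**
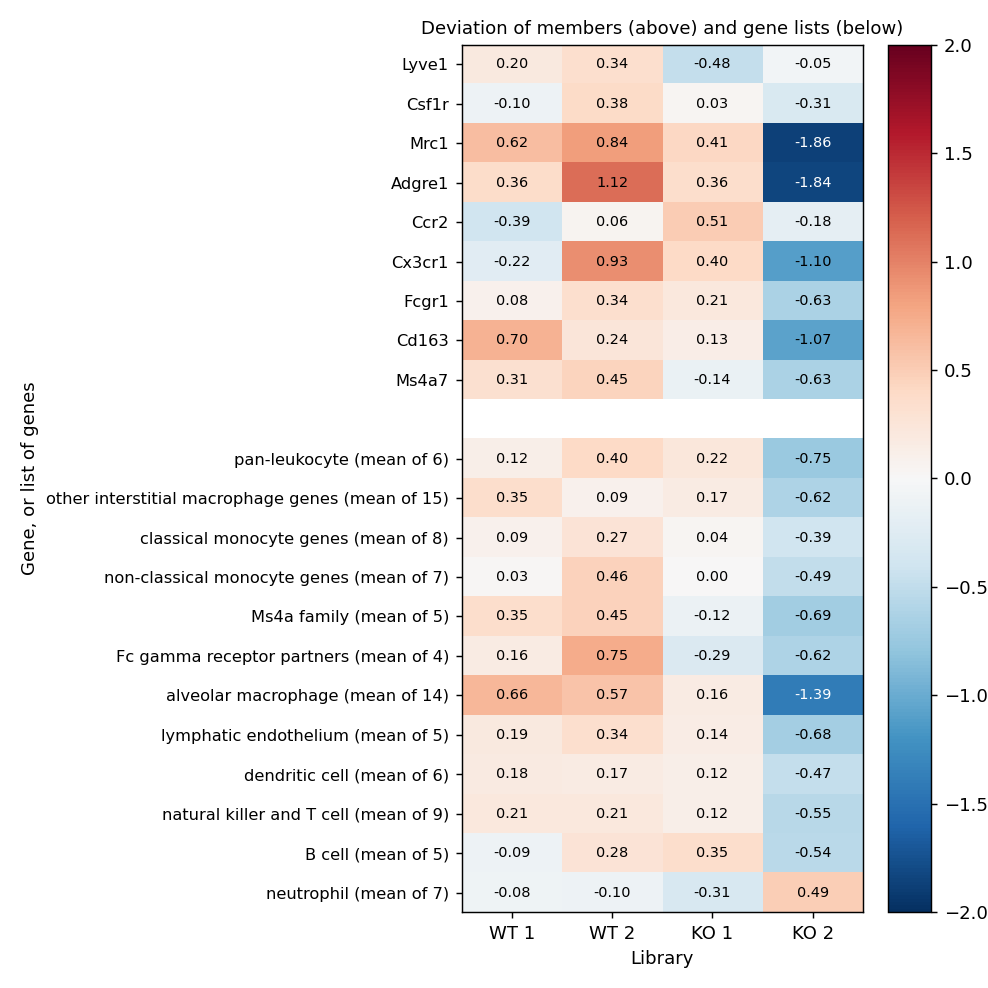
Deviation of log2(FPKM + 1) from the mean of the 4 libraries for each member (above) and, as means, for 12 gene lists (below), with red for higher and blue for lower. In knockout mouse 2 Mrc1 (-1.86) and Adgre1 (-1.84) deviate most among the members and the alveolar macrophage list (-1.39) most among the lists shown, while the neutrophil list is higher (0.49).

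Markers of other cell types varied with the members. Of 14 alveolar macrophage genes 13 lay lower, with a summed FPKM of 827 and 757 in wild type, 527 in knockout mouse 1 and 191 in knockout mouse 2, with none listed at 0. Fabp4 and Car4, named after their values were seen, weigh on these sums. Fabp4 measured 153 and 7.66 in wild type against 7.59 and 11.3 in the knockout. Car4, the one gene that lay higher, gave 98.0 of the 191 in knockout mouse 2. Both knockout mice lay below both wild-type mice for 4 of the 14, an order held by 17.5% of all genes tested, and 10 overlapped. The median log2 difference was -1.13, and -0.20 without knockout mouse 2. Mrc1, Adgre1, Csf1r and Fcgr1 are also made by alveolar macrophages, and the part of those cells in the values of these members was not tested. The alveolar macrophage genes Chil3 (352 and 336 against 204 and 28.0) and Atp6v0d2 (13.3 and 17.7 against 11.8 and 2.15) lay lower in both knockout mice, as did Marco, at 19.7 and 18.1 against 3.59 and 0.555. The 6 pan-leukocyte genes all lay lower (median -0.56, and -0.04 without knockout mouse 2), with sums of 298 and 357 in wild type against 322 and 169. Natural killer and T cell genes (9 of 9 lower, 5 of 9 without knockout mouse 2, sums of 64.2 and 57.5 against 53.9 and 29.8) and B cell genes (5 of 5 lower, 0 of 5 without knockout mouse 2, sums of 48.7 and 63.3 against 71.6 and 32.8) were lowest in knockout mouse 2 too. Dendritic cell genes lay lower in 5 of 6 (3 of 6 without knockout mouse 2), with sums of 31.2 and 30.9 against 33.9 and 17.9. Most neutrophil genes went the other way in that mouse: 5 of 7 lay higher in the knockout, but 6 of 7 lay lower without knockout mouse 2. Their sum was 738 and 587 in wild type, 507 in knockout mouse 1 and 1395 in knockout mouse 2. Most of that last sum came from S100a8 (447) and S100a9 (845), both named after their values were seen. Mmp9 lay lower in both knockout mice (11.5 and 12.5 against 10.6 and 10.0), and Retnlg overlapped. Csf3r, a receptor of neutrophils, measured 10.5 and 10.4 against 12.8 and 16.9. The part of these cells in the member values was not tested.

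Among 8386 other genes with a mean FPKM of at least 5, likeness to the mean of the 9 members was the root mean square distance between deviations over the 4 libraries. Cd48, a surface protein of leukocytes, came first (distance 0.021), with 11.2 and 14.6 FPKM in wild type against 11.6 and 5.04 in the knockout. It was followed by Spn (0.047), Slc15a3 (0.048), Eps8 (0.051) and Nckap1l (0.056). The members themselves lay at distances of 0.154 (Fcgr1) to 0.593 (Adgre1) from their own mean, with Ccr2 at 0.526 and Lyve1 at 0.522, so the mean describes Fcgr1 and Ms4a7 (0.202) better than the others.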

How the data were processed

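The deposited values are FPKM, 1 per gene symbol and library, made by the authors. The submitters' processing notes name the build GRCm38 and TopHat, Cufflinks, HTSeq and DESeq, with no role or version. Not given in the sources used here are the tool behind the FPKM, the annotation and the strand setting. Each library had 21545 entries, and the 46 repeats of 39 symbols were summed. FPKM gives no read totals, so no counting interval is given. Steps between low values (up to 0.3) gave relative depths of 1 and 1.12 for wild-type mice 1 and 2 and 0.973 for knockout mouse 1, and were blurred in knockout mouse 2.

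The 12573 genes that reached an FPKM of 1 in 2 or more libraries were compared as log2(FPKM + 1), which understates changes of low genes. The test was limma 3.58.1 (R 4.3.3; lmFit, eBayes with trend), genotype as the sole term, Benjamini-Hochberg at 0.05, over all genes. It had 2 residual and 2.62 prior degrees of freedom. On simulated data for this comparison over 12573 genes, 200 of them changed, 49% of genes with a log2 change of 1 passed, and 99% at a change of 2. Measured genes passed less readily. By limma, Uty (2.02, adjusted p = 0.187), Kdm5d (1.64, 0.376) and Ltf (-4.31, 0.89) failed, while Ddx3y (3.83) and Eif2s3y (4.56) passed. Nothing is therefore read from the simulated shares about the members, none of which passed. Positions are from GENCODE vM21. BLAST 2.17.0 found no annotated copy of a member at 95% identity over 50% of its transcript. The members and lists were chosen with earlier results of these data known. Named genes are the members, Ltf, up to 4 genes per list of smallest p, the 5 most alike, and others marked as named after their values were seen. Python 3.11.15 and pandas 2.3.3 made the tables.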

Additional observations from a re-analysis of the deposited data

How the results depend on the processing

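Results were recomputed with a pseudocount of 0.1 or 0.5, unfiltered, with a minimum mean FPKM of 5, after median ratio scaling, leaving out the 20 most abundant genes with rescaling, quantile normalization, the mouse number as a replicate block, and leaving out each mouse. No member passed under any of them by limma (lowest adjusted p = 0.122, Mrc1 without knockout mouse 1). The genes past the threshold over all genes numbered 3 (Ddx3y, Eif2s3y and Rpl29) and went to 0 unfiltered and 0 with the replicate block, with 642 genes at an unadjusted p under 0.05 against 887 and 418. Leaving out a mouse gave 0 to 1. The block fit is a description: the numbers name separate animals, and same-numbered libraries deviated in opposite ways (r = -0.34 over 12573 genes, which are not independent), so no pairing was used.

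The 5 members lower in both knockout mice became 3 of 5 at a mean FPKM of at least 5, a filter that leaves fewer members, 4 of 9 with each of the 3 scalings, and 5 to 8 when a mouse was left out, 8 without wild-type mouse 1 or knockout mouse 1. With 3 mice that order is commoner: 32.4% and 39.95% of all genes then had it. The member median lay between -1.01 and -0.32 when a mouse was left out and between -0.92 and -0.54 under the other alternatives. Under a pseudocount of 0.1 the differences of Ms4a7, Cd163 and Fcgr1 were -1.45, -1.74 and -0.67. Ccr2 and Cx3cr1 changed sign when a mouse was left out. Ccr2 ranged from -0.015 (without knockout mouse 1) to 0.68, and Cx3cr1 from -1.46 to 0.051 (without knockout mouse 2). With 2 mice per genotype, and read totals not given with FPKM, members near an FPKM of 1 (Cd163, Fcgr1, Ms4a7) are the least certain.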

Other observations

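Genes of haem and iron handling, the task with which CD163 is linked, were split in direction. Of 9 tested, 4 lay lower and 5 higher in the knockout (median log2 difference 0.06), and none passed by limma. Hmox1, which breaks down haem, measured 20.9 and 25.3 FPKM in wild type against 19.7 and 18.1 in the knockout. Slc11a1, a metal transporter of phagosomes, measured 6.86 and 8.43 against 5.81 and 3.97. Hpx, the haem-binding plasma protein haemopexin, measured 1.82 and 2.66 against 0.972 and 1.21. Fth1, the heavy chain of ferritin, named after its values were seen, overlapped, with 2672 and 2779 against 3021 and 2751.

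Among 10 signalling kinases and adaptors of myeloid cells, 7 lay lower and 3 higher (median -0.33, and 0.02 without knockout mouse 2). Syk, a kinase downstream of Fc receptors, measured 11.01 and 14.3 against 10.5 and 7.41. Plcg2 measured 7.92 and 9.43 against 8.13 and 3.77. Grb2, an adaptor of receptor signalling named after its values were seen, measured 27.0 and 27.8 against 27.7 and 27.3 and hardly varied between the 4 mice.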
